A study of Mus musculus with 10 samples.

Results

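The SOCS family, the suppressors of cytokine signalling, comprises the genes Cish and Socs1 to Socs7. These genes were taken by name, and all 8 were found among the 54532 genes of the table. The family was chosen with earlier results of these data known. RNA had been sequenced from whole spleens of 10 mice of the KRN serum-induced arthritis (KSIA) model, in which serum from arthritic KRN x NOD F1 mice is transferred to recipients that then develop joint inflammation. Of these mice, 5 were DUSP6 KO (Dusp6tm1Jmol, marked HOM in the sample titles although the genotype label reads knockdown) and 5 were wild-type (WT) C57BL/6J. Both groups received 100 µL of serum by intraperitoneal injection on days 0 and 2, were 8 to 12 weeks old, and gave their spleens on day 9, labelled as the peak of arthritis. Every spleen therefore came from an animal given arthritogenic serum, and no spleen without serum was among the samples analysed here. Arthritis scores of the sequenced mice were not used here. The deletion is in the germ line, so that every cell type of the spleen carries it. DUSP6 is a phosphatase that removes phosphate from the MAP kinases ERK1/2.

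Cytokines such as interferons, IL-6, IL-2, erythropoietin and growth hormone bind receptors that carry Janus kinases (JAKs), which phosphorylate STAT transcription factors. Phosphorylated STATs enter the nucleus and switch on target genes, among them Cish, Socs1, Socs2 and Socs3, whose products turn the same receptors off again. A SOCS protein carries an SH2 domain, which binds phosphotyrosine, and a SOCS box, which recruits elongins and a cullin to form a ubiquitin ligase. SOCS1 and SOCS3 also hold a short kinase inhibitory region that blocks JAKs. The transcript of an inducible member is often read as a sign of recent cytokine signalling, whereas Socs4 to Socs7 are less tied to cytokine induction and have been linked more to receptor tyrosine kinases.

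The promoters of 3 inducible members are shown because they carry the letters through which STATs and interferon regulatory factors (IRFs) are known to read such genes. Each runs from 250 bases before to 50 bases after a RefSeq start site in build GRCm38.p6, printed 5′ to 3′ on the gene's own strand. Capitals mark matches, on either strand, to TTCNNNGAA, the core of a STAT site, or to AANNGAAA, the core of an IRF site. The Cish window is chr9:107296409-107296708 on the plus strand, the Socs3 window is chr11:117969317-117969616 on the minus strand and the Socs1 window is chr16:10785487-10785786 on the minus strand.
Cish: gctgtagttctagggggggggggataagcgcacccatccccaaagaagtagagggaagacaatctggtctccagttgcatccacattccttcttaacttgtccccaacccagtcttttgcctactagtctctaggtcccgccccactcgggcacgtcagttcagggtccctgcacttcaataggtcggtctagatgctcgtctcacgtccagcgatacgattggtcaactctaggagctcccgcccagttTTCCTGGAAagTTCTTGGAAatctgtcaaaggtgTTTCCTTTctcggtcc
Socs3: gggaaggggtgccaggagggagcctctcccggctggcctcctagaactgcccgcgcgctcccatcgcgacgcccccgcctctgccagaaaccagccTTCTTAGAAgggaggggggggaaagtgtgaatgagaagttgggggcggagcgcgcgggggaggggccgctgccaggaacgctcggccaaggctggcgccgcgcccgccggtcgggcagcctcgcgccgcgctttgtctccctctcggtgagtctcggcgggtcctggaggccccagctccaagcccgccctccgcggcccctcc
Socs1: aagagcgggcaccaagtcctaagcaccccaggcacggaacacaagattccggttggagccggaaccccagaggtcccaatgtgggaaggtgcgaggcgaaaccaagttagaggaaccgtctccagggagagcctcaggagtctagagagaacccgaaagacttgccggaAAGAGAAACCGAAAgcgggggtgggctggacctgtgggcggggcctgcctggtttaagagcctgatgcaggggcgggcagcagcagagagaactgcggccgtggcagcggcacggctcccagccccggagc

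TTCNNNGAA occurred in 2726 of 32851 RefSeq promoters of the same length, or 8.30%, and AANNGAAA in 7857, or 23.9%. Cish held the STAT letters at 2 places, TTCCTGGAA beginning at the start base itself (0) and TTCTTGGAA beginning 11 bases after it. It also held TTTCCTTT, an IRF match read on the opposite strand, at 34. Socs3 held TTCTTAGAA at -154 and no IRF match. Socs1 held no STAT match but AAGAGAAA at -81 and AACCGAAA at -75, which overlap in the run AAGAGAAACCGAAA. The window of Socs4 held neither motif. Only these 4 members had an entry, and Socs2, Socs5, Socs6 and Socs7 were not matched. The windows of Cish and Socs3 lie inside the gene spans of the deposited table, so the start sites of the annotations differ. A match is a run of letters, and neither binding nor activity was measured here.

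The libraries held between 14990474 and 19822673 reads assigned to genes in DUSP6 KO and between 15611652 and 18422147 in WT. These were recovered from the deposited FPKM values (reads per kilobase of gene, on a scale for each library). That scale did not follow the assigned reads alone. The worth of 3 reads, in FPKM times bases, was 167 in WT replicate 83 and 180 in WT replicate 77, at 16201982 and 16145542 reads. Dusp6 itself ranged from 0.308 to 0.624 FPKM in DUSP6 KO and from 16.6 to 24.0 FPKM in WT, as labelled. Markers of B cells, T cells and red pulp macrophages were present in all libraries, and the B cell markers summed to 613 to 1570 FPKM. Some libraries stood apart. DUSP6 KO replicate 73 had the highest sum of erythroid markers (105745 FPKM, against 20361 to 71924 in the others of its group) and the lowest sums of T cell (122) and B cell (613) markers. WT replicate 77 had the highest neutrophil sum (4769 FPKM), and WT replicate 67 held exocrine pancreas transcripts (12567 FPKM, at most 161 elsewhere). The labels mention male and female mice, but no library exceeded 0.0206 FPKM of Xist and none fell below 14.4 FPKM of Ddx3y, a gene of the Y chromosome. Because whole spleens were sequenced, fewer cells of a type and less RNA per cell cannot be told apart in any value below.

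All 8 family members were expressed in every spleen and passed the filter of a mean of 0.1 FPKM. Socs3 was the single member that differed between genotypes at an unadjusted p under 0.05, being lower in DUSP6 KO, and none differed after Benjamini-Hochberg adjustment over the 21296 genes tested. That is 12.5% of the members, against 5.66% of all genes tested at the same unadjusted threshold in either direction, 3.03% lower and 2.62% higher. With 8 members this count stands near the background. At an adjusted p of 0.05 or less, 0.0704% of all genes passed and 0 members did. No member had groups that did not overlap, against 1.11% of all genes. By sign alone 6 members were lower and 2 higher in DUSP6 KO, while 50.95% of all genes were lower. The median log2 fold change was -0.08 over the members and -0.0046 over all genes tested.

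**Figure D1:**
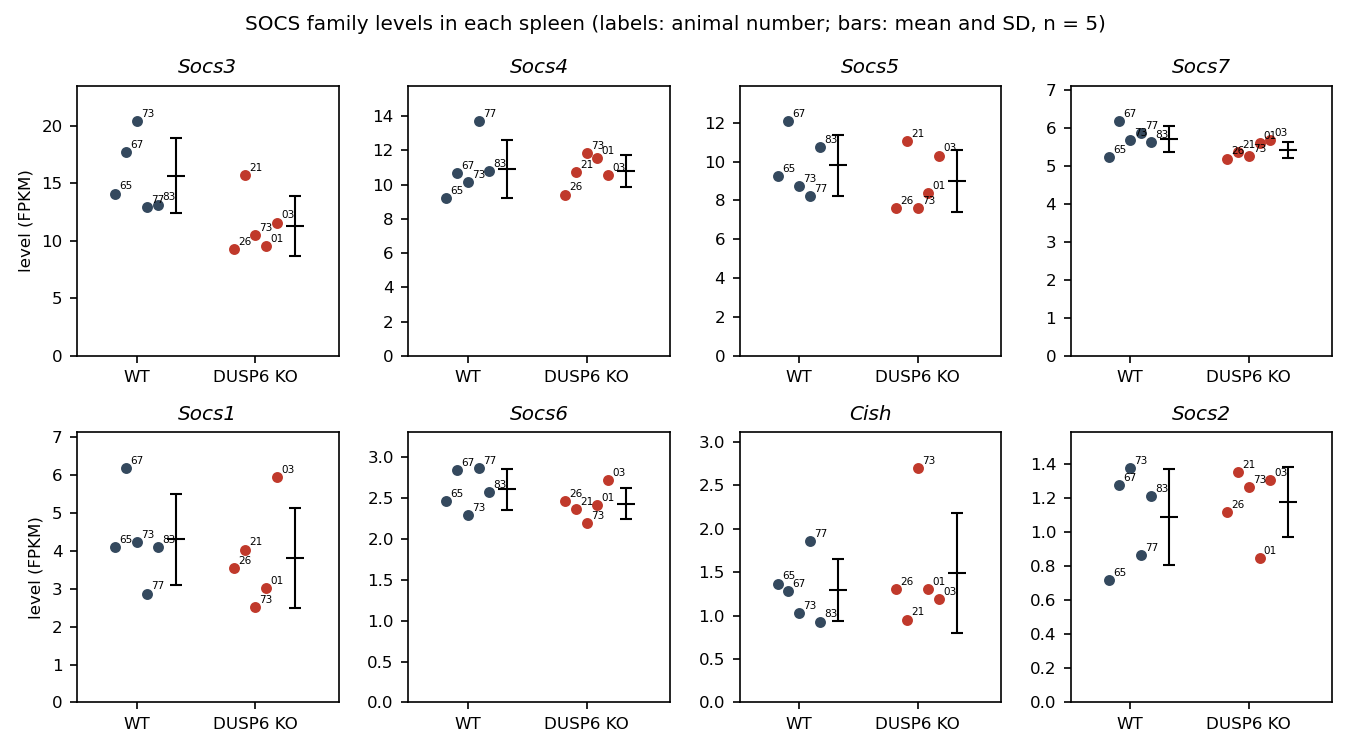
Level in FPKM (vertical axes, from 0, scaled per gene) of each SOCS family gene in each WT (dark) and DUSP6 KO (red) spleen, with the animal number beside each point and the mean and SD (n = 5) as bars. For Socs3, 4 of 5 DUSP6 KO points lie below all WT points, and for the other genes the groups lie over one another, with Cish in DUSP6 KO replicate 73 at 2.70 FPKM.

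Socs3 restrains signalling by gp130 cytokines such as IL-6 and by the G-CSF and leptin receptors, which act mainly through STAT3. Its transcript (ENSMUSG00000053113, chr11:117966079-117970047, minus strand) reached 9.25, 15.7, 10.5, 9.52 and 11.6 FPKM in the DUSP6 KO animals numbered 26, 21, 73, 01 and 03. In the WT animals numbered 65, 67, 73, 77 and 83 it reached 14.1, 17.7, 20.4, 12.9 and 13.1 FPKM. Thus 4 of the 5 DUSP6 KO spleens lay below every WT spleen, whereas replicate 21 lay inside the WT range. Its mean level of 11.3 ± 2.6 FPKM in the DUSP6 KO group stood against 15.6 ± 3.3 FPKM in the WT group (SD, n = 5 each). The log2 fold change was therefore -0.47 (SE 0.17), or 0.723-fold with a 95% interval of 0.556 to 0.940. The unadjusted limma p was 0.0201 and the adjusted p 0.77, and by its p Socs3 ranked 283 among the genes that were lower in DUSP6 KO. A two-sided exact permutation test over the spleens gave p = 0.0397, where 0.0079 is the smallest that 5 against 5 allows. The difference between the group means passed these unadjusted tests, although the spleens of the groups overlapped, and did not pass over all genes.

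The difference of Socs3 kept its sign in all 21 alternative analyses, from -0.59 to -0.37, and its unadjusted p was under 0.05 in 19 of them. It rose to 0.051 without DUSP6 KO replicate 26, at a log2 fold change of -0.40, and without WT replicate 73, at -0.37. Without DUSP6 KO replicate 21, the spleen inside the WT range, the log2 fold change was -0.59 (limma adjusted p = 0.35). The marker sums of neutrophils and of basophils and mast cells also differed between the groups, by unadjusted exact permutation tests. Of the other cell types examined, megakaryocytes and platelets had the lowest exact permutation p, at 0.11. The 9 neutrophil markers, all detected, summed to 555 to 1926 FPKM in DUSP6 KO and 1110 to 4769 FPKM in WT (exact permutation p = 0.0397). WT replicate 77, with the highest neutrophil sum, had the lowest Socs3 level of the WT group, and DUSP6 KO replicate 73, with the highest sum of its group, was at 10.5 FPKM. WT replicate 73, with the next highest sum of the WT group (2227 FPKM), had the highest Socs3 level. DUSP6 KO replicate 01, with the lowest sum (555 FPKM), was at 9.52 FPKM of Socs3. The 7 basophil and mast cell markers summed to 6.88 to 11.8 FPKM in DUSP6 KO and 17.4 to 44.1 FPKM in WT, without overlap (exact permutation p = 0.0079, the smallest possible). Of these 7, 3 had an unadjusted limma p under 0.05. The part of either cell type in the Socs3 difference was not tested.

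**Figure D2:**
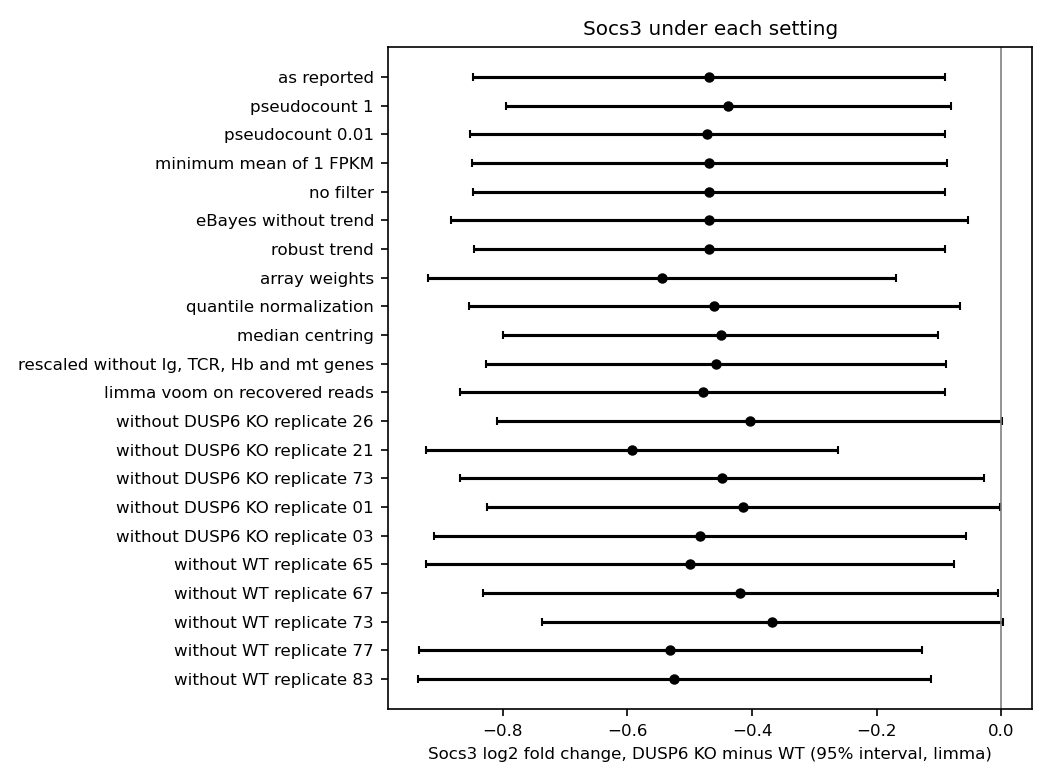
Log2 fold change of Socs3 (horizontal axis, DUSP6 KO minus WT) with its 95% limma interval under the reported analysis and 21 alternatives, 10 of which leave out a spleen. All points are below 0, between -0.59 and -0.37, and the interval reaches 0 without DUSP6 KO replicate 26 and without WT replicate 73.

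The other inducible members did not pass the unadjusted threshold. Socs1 encodes the main brake on interferon-γ signalling and holds the paired IRF letters printed above (ENSMUSG00000038037, chr16:10782240-10785536, minus strand). Its level was 3.54, 4.03, 2.51, 3.02 and 5.95 FPKM in DUSP6 KO and 4.10, 6.20, 4.23, 2.88 and 4.11 FPKM in WT, in the same order of animals. Both groups had a spleen near 6 FPKM and a spleen under 3 FPKM. The means were 3.81 ± 1.32 and 4.30 ± 1.19 FPKM, with a log2 fold change of -0.19 (SE 0.24, 95% interval -0.73 to 0.35, limma adjusted p = 0.99). The exact permutation p was 0.48.

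Cish, the founding member of the family, is a STAT5 target induced by erythropoietin, IL-2 and IL-3 (ENSMUSG00000032578, chr9:107296026-107302784, plus strand). It was measured at 1.30, 0.954, 2.70, 1.31 and 1.19 FPKM in DUSP6 KO and at 1.37, 1.28, 1.03, 1.86 and 0.930 FPKM in WT. DUSP6 KO replicate 73 stood above all other spleens, and the remaining DUSP6 KO values lay within the WT range. The means were 1.49 ± 0.691 and 1.29 ± 0.362 FPKM, with a log2 fold change of 0.14 (SE 0.27, 95% interval -0.46 to 0.74, limma adjusted p = 0.99, exact permutation p = 0.68). Without replicate 73 the sign turned, to -0.08. The highest level in each group came from the spleen with the most erythroid marker RNA, namely DUSP6 KO replicate 73 (105745 FPKM) and WT replicate 77 (50091 FPKM). WT replicate 73, with nearly as much (49752 FPKM), had 1.03 FPKM of Cish, and the part of erythroid cells in the Cish level was not tested. Exons of Cish overlap those of the opposite-strand genes Gm17040 over 261 bases and Gm17041 over 321 bases. Their mean levels were 0.101 and 0 FPKM. Whether counting used strand is not stated in the sources used here, so reads in those bases cannot be assigned with certainty.

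Socs2 encodes the inhibitor of growth hormone receptor signalling (ENSMUSG00000020027, chr10:95385362-95417180, minus strand). It was measured at 1.12, 1.35, 1.27, 0.847 and 1.31 FPKM in DUSP6 KO and at 0.718, 1.28, 1.38, 0.865 and 1.21 FPKM in WT. The groups covered almost the same range. The means were 1.18 ± 0.206 and 1.09 ± 0.285 FPKM, with a log2 fold change of 0.12 (SE 0.21, 95% interval -0.34 to 0.58, limma adjusted p = 0.99, exact permutation p = 0.57). Without WT replicate 65, the lowest spleen, the log2 fold change was -0.0039. Socs2 lies 3.85 Mb from Dusp6 on chromosome 10, the closest of the family to the deleted gene. Of the 20 genes tested between them, 1 had an unadjusted p under 0.05. It was Lum, encoding the matrix proteoglycan lumican, which was lower in DUSP6 KO by log2 -1.57 at an adjusted p of 0.46 (limma). By its own test on counts, the paper places Lum among the most significantly lowered genes of DUSP6 KO spleens. The 1 gene under the unadjusted threshold here makes 5% of the 20 genes, against 5.66% of all genes.

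Among the constitutive members, Socs4 and Socs5 have been linked to the EGF receptor. Socs4 (ENSMUSG00000048379, chr14:47276931-47296102, plus strand) was measured at 9.41, 10.7, 11.8, 11.5 and 10.6 FPKM in DUSP6 KO and at 9.23, 10.6, 10.2, 13.7 and 10.8 FPKM in WT. Its means, 10.8 ± 0.942 and 10.9 ± 1.68 FPKM, were the closest of the family, at a log2 fold change of -0.01 (SE 0.11, 95% interval -0.25 to 0.24). Its sign turned in 6 of the 21 alternatives, with all values between -0.06 and 0.08. Socs5 (ENSMUSG00000037104, chr17:87107679-87137583, plus strand) was measured at 7.61, 11.1, 7.60, 8.39 and 10.3 FPKM in DUSP6 KO and at 9.25, 12.1, 8.74, 8.22 and 10.7 FPKM in WT. The groups overlapped throughout most of their ranges. The means were 9.00 ± 1.60 and 9.81 ± 1.58 FPKM, with a log2 fold change of -0.13 (SE 0.14, 95% interval -0.44 to 0.19). The limma adjusted p was 0.998 for Socs4 and 0.99 for Socs5.

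Socs6 and Socs7, a closely related pair, bind insulin receptor substrates and other tyrosine kinase partners. Socs6 (ENSMUSG00000056153, chr18:88665224-88927481, minus strand) was measured at 2.46, 2.37, 2.20, 2.41 and 2.73 FPKM in DUSP6 KO and at 2.47, 2.85, 2.29, 2.87 and 2.58 FPKM in WT. Its log2 fold change was -0.10 (SE 0.11, 95% interval -0.33 to 0.14), from means of 2.43 ± 0.191 and 2.61 ± 0.249 FPKM. Socs7 (ENSMUSG00000038485, chr11:97362551-97398542, plus strand) was the steadiest member. It was measured at 5.19, 5.37, 5.27, 5.61 and 5.69 FPKM in DUSP6 KO and at 5.23, 6.18, 5.67, 5.86 and 5.62 FPKM in WT. The means were 5.43 ± 0.215 and 5.71 ± 0.346 FPKM, with a log2 fold change of -0.07 (SE 0.08, 95% interval -0.24 to 0.09). The exact permutation p was 0.24 for Socs6 and 0.17 for Socs7, and their limma adjusted p was 0.99 and 0.98.

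The 95% intervals of all 8 members excluded a 2-fold change in either direction, and the farthest bound was that of Socs3, at 0.85 on the log2 scale. The narrowest interval, that of Socs7, spanned 0.848-fold to 1.07-fold, and the widest, that of Cish, 0.727-fold to 1.67-fold.

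**Figure D3:**
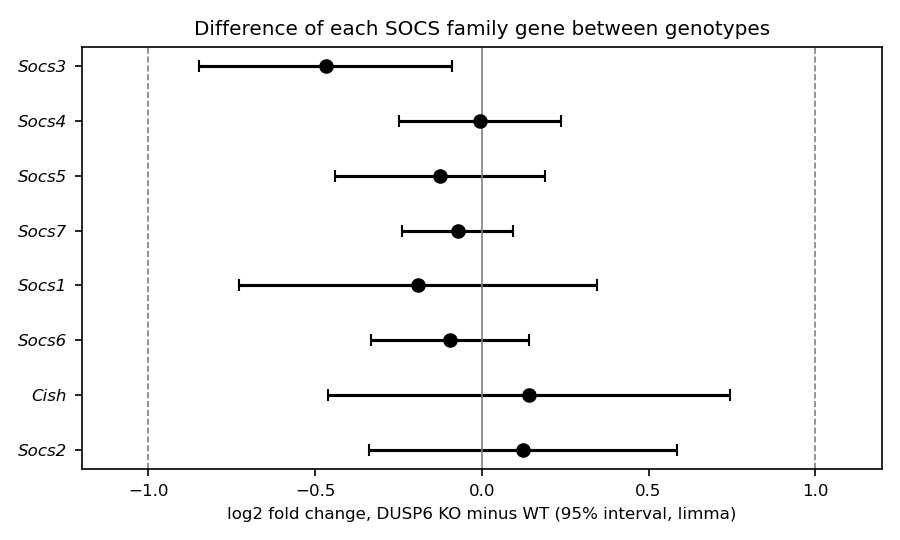
Log2 fold change (horizontal axis, DUSP6 KO minus WT) of each SOCS family gene with its 95% interval from limma (n = 5 per group), ordered by mean level, with dashed lines at a 2-fold change. The interval of Socs3, -0.85 to -0.09, lies below 0, and the other 7 intervals include 0.

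Spleens varied most in the inducible members. The SD between spleens of a group, on the log2 scale, was 0.45 for Cish, 0.42 for Socs1, 0.32 for Socs2 and 0.30 for Socs3. It was 0.24 for Socs5, 0.17 for Socs4, 0.12 for Socs6 and 0.07 for Socs7. Over all genes tested the median SD was 0.35, so Cish and Socs1 were the members above it. Socs7 was less variable than all but 1.35% of the genes tested. Each member was covered by at least 107 reads in every library, Socs7 by 561 to 883 and Socs4 by 1085 to 1717.

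Levels in FPKM, which are per gene length, ordered the family from Socs3 over Socs4, Socs5, Socs7, Socs1 and Socs6 to Cish and Socs2. Socs4 was not clearly separated from its neighbours, as Socs3 exceeded Socs4 in 6 of 10 spleens and Socs4 exceeded Socs5 in 7 of 10. Socs3 exceeded Socs5 in every spleen, though their ranges overlapped. Below Socs5 stood a clear step, because every Socs5 value exceeded every Socs7 value. Socs7 exceeded Socs1 in 8 of 10 spleens, and Socs1 exceeded Socs6 in all 10, though the ranges of both pairs overlapped. Socs6 exceeded Cish in 9 of 10, and Cish and Socs2 were not separated, with Cish higher in 6 of 10. Socs3 stood at the 81.3rd percentile of levels among the genes tested and Socs2 at the 38.7th. The family together reached 45.4 ± 4.84 FPKM per DUSP6 KO spleen, against 51.4 ± 4.66 FPKM per WT spleen (SD, n = 5 per genotype). Socs3 made up 22.3% to 37.8% of that sum across spleens.

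Members were then compared with each other across the 10 spleens, as 28 pairs. Pearson's r of log2(FPKM + 0.1) ranged from -0.62 to 0.80, and 3 pairs had an unadjusted permutation p under 0.05, but none passed adjustment over the 28. Socs1 and Socs5 rose and fell together most closely, with r = 0.80 (permutation p = 0.0050, adjusted p = 0.14) and Spearman's rho = 0.78 (permutation p = 0.011, adjusted p = 0.30). With each group's mean removed, r was 0.79 (exact permutation p = 0.012, adjusted p = 0.34). Without the 2 spleens farthest from the median of Socs1, r was 0.62 (permutation p = 0.098), so that the relation no longer passed even unadjusted. Leaving out the extremes of Socs1 narrows its range, so this cannot show whether the relation rests on those spleens. Both genes were highest in WT replicate 67 and low in DUSP6 KO replicate 73 and WT replicate 77, the spleens with the highest (1570 FPKM) and the lowest (613 and 694 FPKM) B cell marker sums. DUSP6 KO replicate 26, with a B cell marker sum of 1091 FPKM, was lower in Socs5 (7.61 FPKM) than WT replicate 77 (8.22 FPKM). The part of B cell content in the relation of Socs1 with Socs5 was not tested.

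Socs6 and Socs7 gave r = 0.71 (permutation p = 0.021, adjusted p = 0.29) and rho = 0.60 (permutation p = 0.074, adjusted p = 0.30), and r was 0.64 within groups. Cish ran opposite to Socs5, with r = -0.62 (permutation p = 0.049, adjusted p = 0.40), rho = -0.71 (permutation p = 0.027, adjusted p = 0.30) and r = -0.60 within groups. Neither relation was past the unadjusted threshold within groups. Without the 2 farthest spleens r was 0.37 for Socs6 with Socs7 and -0.39 for Cish with Socs5. Leaving out extremes narrows the range and tends to weaken r in any case. These values therefore cannot show whether either relation rests on those spleens.

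**Figure D4:**
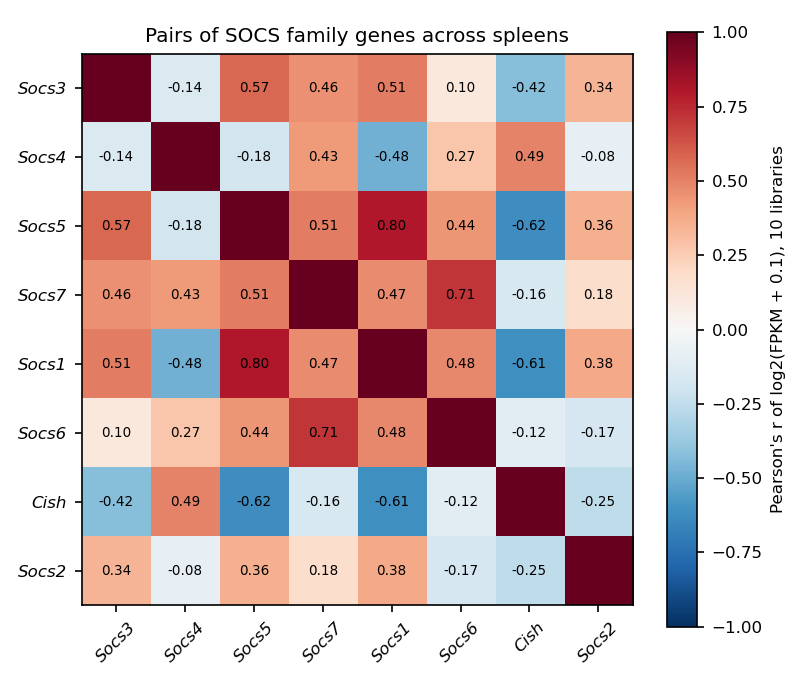
Pearson's r of log2(FPKM + 0.1) between each pair of SOCS family genes over the 10 spleens (colour scale from -1 to 1, value in each square). Socs1 with Socs5 has the highest r, at 0.80, and Cish with Socs5 the lowest, at -0.62.

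The genes most like each member were sought among 13421 genes whose mean reached 1 FPKM, by Pearson's r over the same 10 spleens, as a description without a test. For Socs3 they included Foxred2 and Crybg3, each with r = 0.93. Socs1 ran with Sfn (r = 0.98), Gmppa (0.97) and S1pr4 (0.96), a sphingosine-1-phosphate receptor of lymphocytes. Socs5 ran with Ddb2, a DNA damage recognition factor, Acvr1b, an activin receptor, and AC149090.1, each with r = 0.97. Cish ran with Tmem250-ps (0.97), Ddx23 (0.97), a splicing helicase, and Uqcrq (0.96), a subunit of respiratory complex III. Socs4 ran with Kbtbd8 (0.95) and B130055M24Rik (0.94), among others. Values were lower for the steady or scarce members, between 0.88 and 0.92. Socs2 ran with Gpatch3, Cbll1 and Tbkbp1, Socs6 with Mcee, Zc3hav1l and AW209491, and Socs7 with D330041H03Rik, Gm23689 and Gm31718. No other SOCS family gene was among the 3 nearest of any member. Each of these values is the highest of 13421, so its size owes to the search as well, and the genes share the same 10 libraries and their cell makeup.

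The rest of the pathway was examined from lists of its parts, and in none did a gene pass adjustment over all genes. The counts below stand beside the shares over all genes tested. Of these, 3.03% were lower and 2.62% higher at an unadjusted p under 0.05, and 50.95% were lower by sign. Of the cytokines that signal through JAKs, 14 of 27 passed the filter, and 2 were lower at an unadjusted p under 0.05. Il4 was at 0.822 ± 0.249 FPKM in DUSP6 KO and 1.21 ± 0.21 in WT (log2 -0.54, limma adjusted p = 0.80), and Il10, a STAT3-activating anti-inflammatory cytokine, at 0.174 ± 0.176 and 0.606 ± 0.392 (log2 -1.37, exact permutation p = 0.071, limma adjusted p = 0.84). The lowest DUSP6 KO value of Il10 was 0 FPKM. Its levels lay near the pseudocount of 0.1 FPKM, so the size of its log2 fold change is uncertain. The paper reported the opposite direction for protein, with more IL10 in serum and more IL10+ spleen cells in DUSP6 KO. Of the receptor chains, 34 of 36 passed the filter and 27 were lower by sign. The unadjusted threshold was passed by 2, near the share of 5.66% over all genes in either direction. These 2 were Il5ra, the eosinophil and basophil IL-5 receptor, at 2.27 ± 0.53 against 3.96 ± 1.55 FPKM (log2 -0.72, limma adjusted p = 0.79), and Ifnar2, an interferon receptor chain, at 21.7 ± 1.7 against 19.3 ± 1.0 FPKM (log2 0.16, limma adjusted p = 0.86). Basophils are a known source of Il4, and the sums of basophil and mast cell markers did not overlap between the groups, as given above. The part of these cells in the Il4 and Il5ra levels was not tested. Il6st, which encodes gp130 and was chosen after its values were seen because SOCS3 binds its product, was at 18.7 ± 3.7 FPKM in DUSP6 KO and 17.0 ± 1.2 in WT (exact permutation p = 0.42).

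The kinases and transcription factors showed no call in either direction. For the 4 JAK kinases the median log2 fold change was -0.05, and the lowest p was that of Jak3 (17.4 ± 3.5 against 19.1 ± 1.8 FPKM, limma adjusted p = 0.98). The 7 STAT factors had a median of -0.14 and 5 were lower by sign. Stat3, through which Socs3 is induced by IL-6, had the lowest p, at 18.5 ± 2.5 against 21.1 ± 1.7 FPKM (log2 -0.19, exact permutation p = 0.095, limma adjusted p = 0.94). Of 10 other inhibitors of the pathway (PIAS proteins, phosphatases and adaptors) none passed the unadjusted threshold, and the median was -0.07. The lowest p there was that of Ptpn1, the phosphatase PTP1B, at 37.7 ± 3.6 against 41.9 ± 4.5 FPKM (exact permutation p = 0.15).

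Genes known to respond to STAT3 were lower by sign in 9 of 9 cases, with a median log2 fold change of -0.31. Junb, Il1rn, Mcl1 and Pim1 lay near 0, between -0.013 and -0.11. Saa3, at a mean of 0.138 FPKM, lay near the filter of 0.1 FPKM. Over all genes, 50.95% were lower by sign and the median was -0.0046. The count of lower STAT3-responsive genes was 7 to 9 over the 21 alternatives. Lcn2 passed the unadjusted threshold, at 23.6 ± 14.2 FPKM in DUSP6 KO and 59.6 ± 44.3 in WT (log2 -1.25, exact permutation p = 0.048, limma adjusted p = 0.77). Lcn2 is also a granule gene of neutrophils, whose 9 markers had a median log2 fold change of -1.13. Of the 8 genes known to respond to STAT5, 5 were lower by sign and none passed, with a median of -0.05. Pim2, a survival kinase, had the lowest p, at 12.3 ± 1.5 against 14.5 ± 2.1 FPKM (exact permutation p = 0.087). The genes of a list are not independent of each other, and the part of neutrophil content in these counts was not tested.

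The ubiquitin machinery with which SOCS proteins act lay close to 0. All 9 tested partners of the SOCS box, elongins and cullins among them, missed the unadjusted threshold, with a median log2 fold change of 0.02. The lowest p was that of Rbx1, the RING subunit, at 14.9 ± 1.2 against 14.0 ± 1.3 FPKM (exact permutation p = 0.31). Of 28 other proteins with a SOCS box, 21 passed the filter, with a median of 0.02. Asb2, a substrate receptor for filamins, passed the unadjusted threshold at 41.7 ± 7.1 FPKM in DUSP6 KO and 31.8 ± 5.6 in WT (log2 0.39, exact permutation p = 0.048, limma adjusted p = 0.79).

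**Figure D5:**
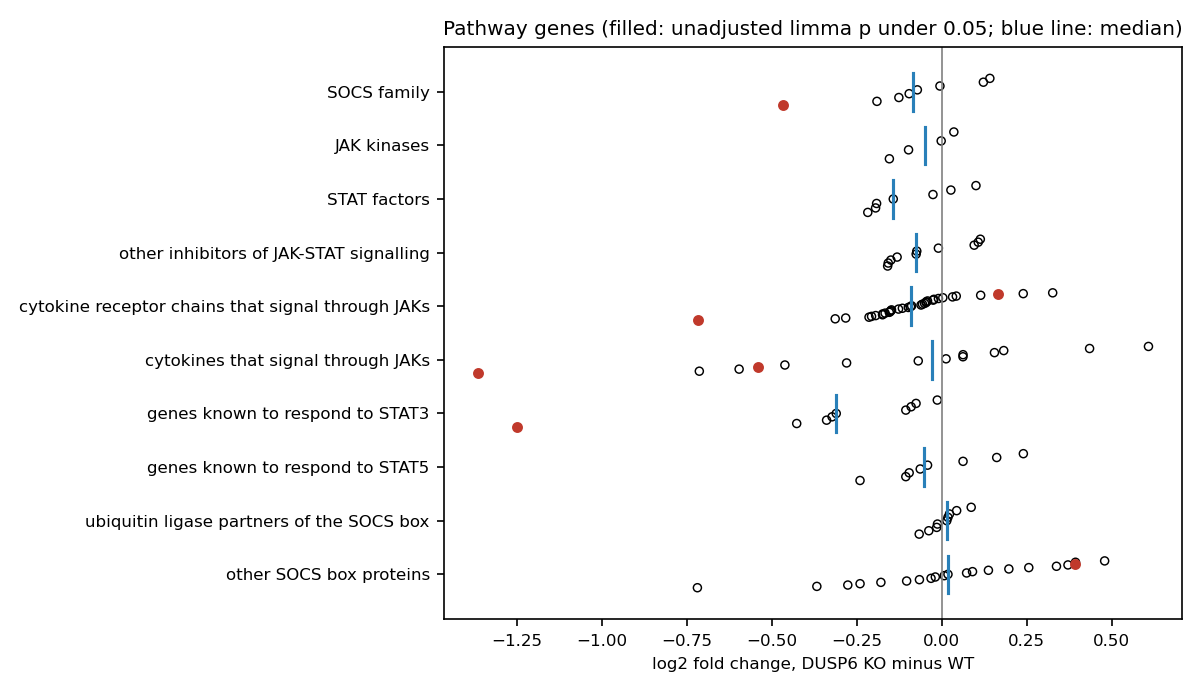
Log2 fold change (horizontal axis, DUSP6 KO minus WT) of each tested gene of the SOCS family and of 9 lists of pathway genes, each circle a gene, filled where the unadjusted limma p is under 0.05, with a blue line at the list's median. The STAT3-responsive genes all lie below 0, with a median of -0.31, and the partners of the SOCS box lie around 0.02.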

How the data were processed

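Total RNA of 5 DUSP6 KO and 5 WT spleens, from different mice per the labels, was poly(A)-selected and sequenced with paired ends. The authors aligned reads by Hisat2, used featureCounts (1.5.0-p3) to count them over genes and deposited FPKM values. The submitters' processing notes name build hg38, but 54495 of the 54532 deposited genes were found in GENCODE M21 (GRCm38), 98.3% of them with identical coordinates, and coordinates are given as deposited. Every FPKM value was a whole multiple of the worth of 1 read, which gave the depths. The tolerance was 0.001 read, widened in proportion to the count for genes with many reads. Library pairs of a group differed by a chi-square of 14.7 to 169 per gene, so none was a duplicate.

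The 21296 genes whose mean reached 0.1 FPKM were tested on log2(FPKM + 0.1) with limma (3.58.1, R 4.3.3; lmFit and eBayes with a trend), with Benjamini-Hochberg adjustment over all of them and a threshold of 0.05. Fold changes are on that scale. The values as deposited, in FPKM, were tested on the log scale in place of the study's test on counts, and the recovered reads entered an alternative (voom). Exact permutation tests were two-sided over 5 against 5 spleens; relations between pairs of members were tested with 100000 resamples over all spleens and exactly, over 14400 arrangements, within groups (scipy 1.17.1). The fit was tested on simulated data. The 8 members, the lists and the tests were chosen with earlier results of these data known. The IRF motif and the counts by sign over alternatives were added after the data were seen. The naming rule covers all members, the 3 genes most like each, and from each list the genes with an unadjusted p under 0.05 and the gene with the lowest p. Some genes and 1 list that this rule covers are not reported here.

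Alternatives were pseudocounts of 1 and 0.01, a minimum of 1 FPKM, no filter, eBayes without or with a robust trend, quantile normalization, array weights, centring on the median, rescaling after removal of the genes of haemoglobin, mitochondria, immunoglobulins and T cell receptors, voom on the recovered reads, and leaving out each spleen. Promoters came from the RefSeq table of GRCm38.p6.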

Additional observations from a re-analysis of the deposited data

Results flagged for a closer look

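Cish in DUSP6 KO replicate 73, at 2.70 FPKM, stood far from the other 4 spleens of its group. In FPKM, its gap to the nearest of them took up 0.797 of the group's range, above Dixon's critical value of 0.71 for 5 samples at the 95% level. The mark depends on that scale. In log2(FPKM + 0.1) this spleen was at 1.49 and the others of its group between 0.08 and 0.49, which falls just short of the critical value. Cish in this spleen was the only such value in FPKM among the 16 groups of 5 examined (8 members in 2 genotypes), of which chance marks about 1 in 20. The same library had the highest erythroid marker sum (105745 FPKM) and the lowest T cell (122 FPKM) and B cell (613 FPKM) marker sums of all 10, and their part in the Cish value was not tested. The log2 fold change of Cish was 0.14 with this spleen and -0.08 without it.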

How the results depend on the processing

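No alternative gave a family member an adjusted p of 0.05 or less, the lowest being 0.35 for Socs3 without DUSP6 KO replicate 21. The number of members with an unadjusted p under 0.05 was 1 under the 11 alternatives of scaling, filter and model, where Socs3 gave -0.54 to -0.44 with unadjusted limma p-values from 0.0088 to 0.031. It ranged from 0 to 1 when single spleens were left out, and was 0 without DUSP6 KO replicate 26 and without WT replicate 73, each of which moved the Socs3 p to 0.051. Signs turned for 3 members whose values were near 0. Socs4 turned to 0.0154 with array weights, 0.0129 with median centring and 0.0055 with rescaling, and ranged from -0.0617 to 0.0795 when single spleens were left out. Cish ranged from -0.084 to 0.27 and Socs2 from -0.0039 to 0.23 when single spleens were left out. The members lower by sign numbered 5 to 7 over all alternatives. No pair of members passed adjustment under any alternative run. Of 276 recomputed values, 8 turned in sign and 2, the counts of members that fell to 0, moved. The other 266 were counted as kept. Among them are the Socs3 fold changes whose p rose to 0.051, which kept their sign, and some counts by sign that shifted. No paired analysis was possible because the groups share only 1 animal number, 73. The precision of each difference is given by its interval, and FPKM at the level of Cish and Socs2 rests on as few as 107 reads.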
